A study of Mus musculus with 12 samples.

Results

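The response of osteoclast precursors to the BET inhibitor JQ1 was read from 6 libraries of a series of 12: 3 of bone marrow-derived monocytes (BMDMs) that received M-CSF and RANKL alone (MR) and 3 of BMDMs that received JQ1 beside both cytokines. The libraries were taken by their column labels, and the response is described across the 11670 genes with enough counts for a test, out of 21899 in the table. Marrow came from wild-type C57BL/6J mice of 4 to 6 weeks (C57BL/6 in the labels, which add tibias to the femurs that the methods name), with no further allele given, and both groups were cultured in M-CSF at 50 ng/ml and RANKL at 100 ng/ml. The other 6 libraries, 3 with the BRD9 degrader dBRD9 and 3 with dexamethasone and the BRD9 inhibitor iBRD9, entered the same fit and served for checks. The study set BRD9 against BET proteins in osteoclast formation, and the comparison asks what BET inhibition alters in these cells. The labels give neither the dose nor the duration of JQ1 and name no vehicle for the MR group. The study's methods name a JQ1 concentration and a vehicle for its compound-treated cultures in general, without a duration of JQ1. The labels also do not say whether libraries came from separate cultures, so p values measure the spread between these libraries, which may be technical.

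BET proteins, among them BRD2 and BRD3, bind acetylated histone tails through paired bromodomains. They help to bring the kinase P-TEFb (CDK9 with a T-type cyclin) to promoters and enhancers, where it releases paused RNA polymerase II, and genes with large enhancers or fast induction are known to depend on them most. JQ1 fills the acetyl-lysine pocket and displaces BET proteins from chromatin. In macrophages BET proteins are known for their part in cytokine and interferon-induced transcription, and RANKL drives the same precursors toward multinucleated, bone-resorbing osteoclasts.

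Gene counts summed to 15080959 to 18067758 in the MR libraries and 14875951 to 17788153 in the JQ1 libraries. With MR 8.67 to 8.74% of the counts fell on the leading 10 genes, with JQ1 12.4 to 13.7%. A principal component with 73.2% of the variance placed the JQ1 libraries at 79.8 to 80.6 and the 9 others between −30.7 and −24.7. The macrophage markers Csf1r, Adgre1, Cd68 and Lyz2 were expressed in all 6 libraries, as were Ctsk and Acp5 of osteoclasts. Liver transcripts divided the series: albumin (Alb) had 801 counts in MR library 3, 1031, 744 and 816 counts in the JQ1 libraries and 738 to 866 in the dBRD9 libraries, against 0 to 2 in all others. Key results are therefore also given from a fit with a term for this division, in which MR library 3 stands alone for MR, and against the dBRD9 libraries. Levels are CPM, read counts relative to library size after TMM scaling. Fold changes are log2 values ± their standard error, also where a gene is said to rise or change by a value, and adjusted p values come from the edgeR quasi-likelihood test with Benjamini-Hochberg adjustment over all 11670 genes. Scaling by total counts alone would lower every fold change by about 0.19 on the log2 scale (a median shift of −0.19), so directions are relative to the bulk of the genes, and small fold changes depend on that choice.

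With JQ1, 7190 of the 11670 tested genes differed from MR at an adjusted p under 0.05, or 61.6%. Of these, 3503 were higher (30%) and 3687 lower (31.6%), so higher genes made up 48.7% of the calls, and 30.0% under total-count scaling. Large changes were mostly losses. At least 2-fold, 1451 genes were lower (12.4%) and 538 higher (4.61%), and at least 16-fold, 205 were lower (1.76%) and 15 higher (0.129%). For 7396 genes (63.4%) every JQ1 library lay on the same side of all MR libraries. The middle 50% of all fold changes lay between −0.47 and 0.34 on the log2 scale, with 5% of genes below −2.40 and 5% above 1.02.

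**Figure D1:**
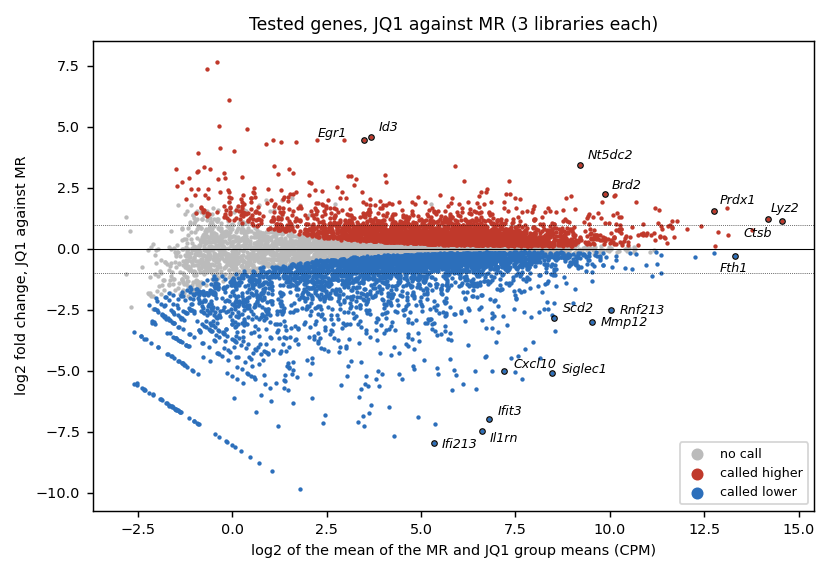
Fold change of every tested gene (log2, JQ1 against MR) over its mean expression (log2 of the mean of the group means in CPM). Red points are the 3503 genes called higher and blue points the 3687 called lower, and the lower tail includes Ifi213 at −7.96 while Lyz2 at the right edge lies at 1.13. Blue points on the lowest diagonal have no JQ1 counts, and their values depend on the prior count of the fit.

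In CPM after TMM scaling, the gains summed to more than the losses. The scaling factors were 1.028 to 1.033 with MR and 0.8949 to 0.9105 with JQ1. Scaled CPM therefore sum to more in the JQ1 libraries, so the net gain follows from the scaling. It says nothing of absolute amounts of RNA. Genes called higher gained 241035 CPM in sum and genes called lower lost 108098 CPM, and the 10 largest gains held 71932 CPM. Lyz2, which encodes lysozyme, was the largest of these, at 15090.1, 14928 and 15254 CPM with MR and 30185, 33262 and 35470.4 CPM with JQ1 (log2 fold change 1.13 ± 0.057, adjusted p = 2.49e-16). Ctsb, for the lysosomal protease cathepsin B, stood at 11271, 11169 and 11338 CPM with MR and 25213, 26347 and 27417 CPM with JQ1 (log2 fold change 1.23 ± 0.046, adjusted p = 9.90e-20). Ftl1, for the light chain of the iron store ferritin, was at 4135, 4337 and 4223 CPM with MR and 11144, 14617 and 14353 CPM with JQ1 (log2 fold change 1.66 ± 0.11, adjusted p = 8.00e-08). These genes were named only where the groups did not overlap, which held for 63.4% of all tested genes. Beyond that condition, in each of them the lowest JQ1 library lay above the highest MR library by more than the spread within either group. Prdx1, a peroxidase, and Psap, the precursor of lysosomal saposins, were also among these 10, with log2 fold changes of 1.56 ± 0.054 and 0.59 ± 0.046. Apoe, the lipid carrier that macrophages secrete, was at 1178, 1283 and 1306 CPM with MR and 3512, 3779 and 4024 CPM with JQ1 (log2 fold change 1.59 ± 0.059, adjusted p = 8.48e-20).

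Among the largest losses in CPM was Fth1, the heavy chain of ferritin, at 11484, 10859.9 and 11110.3 CPM with MR and 8215, 9159 and 9925 CPM with JQ1 (log2 fold change −0.29 ± 0.054, adjusted p = 2.82e-05). So the ferritin chains moved in opposite directions, Fth1 by a small and Ftl1 by a large factor. Mpeg1, which encodes the pore-forming perforin-2 of macrophages, was at 3489.7, 3543 and 3515 CPM with MR and 1846, 1655 and 1793 CPM with JQ1 (log2 fold change −0.99 ± 0.049, adjusted p = 7.26e-17). Lgals3, for galectin-3, stood at 3019.9, 3002 and 3068 CPM with MR and 1280.4, 1466 and 1459.8 CPM with JQ1 (log2 fold change −1.11 ± 0.061, adjusted p = 2.06e-15). The giant ubiquitin ligase gene Rnf213 and the macrophage elastase gene Mmp12 had log2 fold changes of −2.52 and −3.0. Groups that do not overlap were a condition for naming these 5 genes.

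Of the genes for BET proteins, P-TEFb and transcription elongation, 15 of 37 were called higher and 6 lower, with a median log2 fold change of 0.13 that turned to −0.056 under total-count scaling. Brd2, for a BET protein, stood at 325, 321 and 336 CPM with MR and 1566, 1501 and 1541 CPM with JQ1 (log2 fold change 2.23 ± 0.050, adjusted p = 6.50e-25). The background for the counts of list members from here on is that 30% of all tested genes were called higher and 31.6% lower. Brd3, for another, gave 0.18 ± 0.088 with no call (adjusted p = 0.0764). The proteins that hold P-TEFb inactive include HEXIM1 and the 7SK capping enzyme MEPCE. Hexim1 was at 84.8, 81.7 and 78.4 CPM with MR and 221, 237 and 255 CPM with JQ1 (log2 fold change 1.54 ± 0.068, adjusted p = 4.60e-18). Mepce was at 41.4, 39.3 and 37.7 CPM with MR and 82.2, 82.1 and 76.6 CPM with JQ1 (log2 fold change 1.02 ± 0.075, adjusted p = 8.09e-13). Their relative Hexim2 changed the other way, at 2.41, 1.98 and 2.06 CPM with MR and 1.03, 0.371 and 0.838 CPM with JQ1 (log2 fold change −1.54 ± 0.37, adjusted p = 6.26e-04). Polr2a, the largest subunit of RNA polymerase II, rose by 0.65 ± 0.067, while Aff1, a scaffold of the super elongation complex, changed by −0.71. The kinase gene Cdk9 gave 0.32 ± 0.071, a call that was lost with the liver term.

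The genes that interferons induce were lower with few exceptions. Of 82 tested members, 78 were called lower and 0 higher by edgeR, with 0 higher also by DESeq2 and at an unadjusted p under 0.05. Of the lower ones 71 were at least 2-fold so, where 12.4% of all tested genes were, and the median log2 fold change was −2.58 against −0.01 for all genes. Together they took 1.37 to 1.47% of the counts with MR and 0.353 to 0.388% with JQ1. The median was −2.65 with the liver term and −2.39 against dBRD9. The members with no call were Tgtp1, Sp140, Ifitm1 and Ifitm2. Pml and Samhd1, a nuclear body organizer and a dNTP-cleaving restriction factor, were called lower but by only −0.36 ± 0.066 and −0.24 ± 0.049. The spread within the group was therefore wide, from −7.96 to 0.61 on the log2 scale.

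Interferon-stimulated response elements (ISREs) are the promoter motifs that the ISGF3 complex and IRFs bind. The RefSeq promoters of 3 strongly lowered genes are printed because they carry that motif at different distances from the start, each as the 250 bases before the annotated start (mouse GRCm38.p6, 5′ to 3′ on the gene's strand), with matches to the ISRE core on either strand, searched as GAAA, 2 bases of any kind and GAAA, in capitals. Ifi213, a DNA-sensing family member (chr1:173599273-173599522, minus strand), holds 1 match that begins 73 bases before the start. Ifit3, an antiviral RNA-binding protein gene (chr19:34583279-34583528, plus strand), holds 2 matches, 156 and 122 bases before it. Cxcl10, for a chemokine that draws T cells (chr5:92348890-92349139, minus strand), holds 1 match at 213 bases.
Ifi213: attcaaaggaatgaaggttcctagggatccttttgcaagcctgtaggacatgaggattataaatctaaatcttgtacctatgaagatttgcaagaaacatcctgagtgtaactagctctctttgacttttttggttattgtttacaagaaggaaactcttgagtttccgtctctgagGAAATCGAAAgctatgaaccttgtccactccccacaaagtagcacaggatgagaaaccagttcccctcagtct
Ifit3: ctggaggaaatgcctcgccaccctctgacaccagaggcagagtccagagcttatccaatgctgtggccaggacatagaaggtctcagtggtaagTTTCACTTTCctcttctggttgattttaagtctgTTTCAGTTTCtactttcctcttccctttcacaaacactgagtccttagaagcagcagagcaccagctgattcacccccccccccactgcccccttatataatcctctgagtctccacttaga
Cxcl10: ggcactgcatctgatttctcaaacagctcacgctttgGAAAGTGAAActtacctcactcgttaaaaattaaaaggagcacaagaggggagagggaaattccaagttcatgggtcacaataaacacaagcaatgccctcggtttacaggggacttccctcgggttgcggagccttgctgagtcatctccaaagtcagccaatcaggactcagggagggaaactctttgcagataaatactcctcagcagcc

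In the window from 250 bases before to 50 after the start, 39 of the 68 interferon effectors with a RefSeq promoter held this motif, or 57.4% (exact 95% interval 44.8 to 69.3%), against 3.99% of all 27025 genes in the table, a gene being counted where at least 1 of its promoters matched (3.44% of the 32851 promoters). The shorter GAS motif, TTCNNNGAA, which STAT dimers bind, was in 15 of 68 (22.1%, against 9.55% of all genes). The list holds genes known as interferon-induced, so these shares describe the list and say nothing of the effect of JQ1. Many members are neighbouring relatives, which the interval treats as independent. Effectors with the ISRE match had a median log2 fold change of −2.86 and the 29 with a promoter but no match one of −2.36, so members without these letters in the window were lowered as well. By library, Ifi213 was at 74.8, 90.2 and 78 CPM with MR and 0.443, 0.185 and 0.349 CPM with JQ1, Ifit3 at 194, 232 and 233 CPM with MR and 1.48, 1.24 and 2.58 CPM with JQ1 and Cxcl10 at 247, 314 and 301 CPM with MR and 7.24, 9.57 and 9.64 CPM with JQ1 (log2 fold change −5.02 ± 0.15, adjusted p = 4.25e-12). Every JQ1 library of these 3 genes lay far below the lowest MR library, and groups without overlap were found for 63.4% of all tested genes.

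The effectors given next by function were chosen after their values were seen. That each was called lower therefore adds nothing to the count for the whole list, 78 of 82. Guanylate-binding proteins attack the vacuoles of pathogens, and Gbp2 was at 75.4, 84 and 76.8 CPM with MR and 6.5, 6.92 and 6.84 CPM with JQ1 (log2 fold change −3.54 ± 0.10, adjusted p = 6.99e-23). Oligoadenylate synthetases activate RNase L on double-stranded RNA, and Oas3 was at 423, 389.8 and 414 CPM with MR and 27.2, 19.8 and 25.7 CPM with JQ1 (log2 fold change −4.08 ± 0.10, adjusted p = 2.40e-17). Isg15, the ubiquitin-like modifier, was at 121, 103 and 116 CPM with MR and 5.02, 3.03 and 3.0 CPM with JQ1 (log2 fold change −4.96 ± 0.13, adjusted p = 4.95e-21). Rsad2, for the antiviral enzyme viperin, gave a log2 fold change of −5.06 ± 0.12. Bst2, for tetherin, which holds budding virus at the cell surface, changed less, by −2.02 ± 0.14. Immunity-related GTPases were lower too, with −5.62 ± 0.27 for Iigp1 and −2.98 ± 0.12 for Igtp.

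Receptors and transcription factors of the same pathway were called in both directions. Of 32 tested genes for interferon receptors, Janus kinases, STATs and IRFs, 15 were higher and 9 lower, with a median of 0.18, or −0.0031 by total counts. The receptor genes Ifnar1 and Ifngr1 rose by 0.63 ± 0.054 and 0.88 ± 0.061, as did the kinase gene Jak1 (0.56 ± 0.052). Irf7, the amplifier of type I interferon, was at 453, 492 and 492 CPM with MR and 81, 67.7 and 90.7 CPM with JQ1 (log2 fold change −2.59 ± 0.11, adjusted p = 9.19e-11). Usp18, the brake on the type I receptor that is itself interferon-induced, was at 44.8, 61.3 and 54.1 CPM with MR and 2.44, 1.24 and 2.23 CPM with JQ1 (log2 fold change −4.78 ± 0.17, adjusted p = 8.73e-18). Stat2 and Irf9, which form ISGF3 together with another STAT, changed by −1.59 ± 0.062 and −1.18 ± 0.074. Irf8, a lineage factor of myeloid cells, went the other way, at 0.94 ± 0.061. So the transcripts of these 2 receptors stood above their MR level while those of the effectors stood below it.

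Upstream, sensors of foreign nucleic acid were lower in 14 of 20 cases and higher in 4, with a median of −0.94. Zbp1, a sensor of Z-form nucleic acid that triggers necroptosis, was at 112, 116 and 128 CPM with MR and 3.25, 2.72 and 3.98 CPM with JQ1 (log2 fold change −5.17 ± 0.19, adjusted p = 5.78e-12). The endosomal RNA receptor gene Tlr7 was at 183, 159.6 and 173 CPM with MR and 27, 19.8 and 22.3 CPM with JQ1 (log2 fold change −2.9 ± 0.088, adjusted p = 2.73e-21). Rigi and Ifih1, for the cytosolic RNA sensors RIG-I and MDA5, changed by −2.57 ± 0.073 and −1.97 ± 0.072. By contrast Aim2, the sensor of cytosolic DNA that builds an inflammasome, was 0.45 ± 0.092, and Tlr8 was 0.37 ± 0.070. The adaptors further down, Tbk1 and Ticam1, gave 0.081 ± 0.059 and −0.043 ± 0.095 with no call. Toll-like receptors and their co-receptors were lower in 10 of 14 and higher in 2. Cd180, a relative of TLR4 that tempers it, was at 512, 523 and 526 CPM with MR and 95, 91.7 and 94.2 CPM with JQ1 (log2 fold change −2.47 ± 0.059, adjusted p = 2.42e-24), its partner Ly86 changed by −2.06 ± 0.087, and Tlr4 itself by −0.83 ± 0.077.

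Chemokine ligands were lower in 17 of 19 tested genes and higher in 0 by edgeR, by DESeq2 and at an unadjusted p under 0.05, with a median of −1.4. Ccl2, which recruits monocytes, was at 199, 214 and 219 CPM with MR and 27.4, 38.2 and 29.1 CPM with JQ1 (log2 fold change −2.73 ± 0.13, adjusted p = 8.37e-10). Ccl12, a further CCR2 ligand of mice, was at 15.9, 16.5 and 18.7 CPM with MR and 0.591, 0.988 and 0.489 CPM with JQ1 (log2 fold change −4.58 ± 0.24, adjusted p = 2.96e-16). Ccl3 and Ccl6 moved least among the called ones, by −0.51 ± 0.095 and −0.44 ± 0.057. Ccl9, which is abundant in osteoclast cultures and attracts precursors through CCR1, was at 1695, 1779.7 and 1684 CPM with MR and 975, 968 and 1015 CPM with JQ1 (log2 fold change −0.80 ± 0.054, adjusted p = 1.11e-13). The fall therefore ran from a small part of the transcript to nearly all of it.

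Most receptors for such signals were lower too. Chemoattractant and purine receptors were lower in 18 of 26, 17 of them at least 2-fold, and higher in 3. Ccr2, the receptor that lets monocytes leave the marrow, was at 34.8, 29.6 and 27.1 CPM with MR and 0.812, 0.741 and 1.05 CPM with JQ1 (log2 fold change −5.13 ± 0.18, adjusted p = 1.79e-20). P2ry14, a receptor for UDP-sugars, was at 20.4, 22.9 and 16.2 CPM with MR and 0.369, 0 and 0.0698 CPM with JQ1 (log2 fold change −7.11 ± 0.31, adjusted p = 9.34e-18). Ccr1, the receptor for Ccl9, kept more of its transcript, with 40.4 ± 2.1 CPM with MR and 7.28 ± 0.925 CPM with JQ1 (mean ± SD, n = 3). The complement receptor gene C5ar1 and Plaur, for the urokinase receptor, were among the 3 that rose, by 0.79 ± 0.054 and 0.62 ± 0.074.

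Several of these families lie side by side in the genome, and many of their members were called together. Runs of at least 4 adjacent tested protein-coding genes that all changed at least 2-fold in the same direction numbered 29, of which 27 with 136 genes were lower and 2 with 17 genes higher (GRCm39). On chromosome 19 (34527932 to 34639833) all 6 tested Ifit genes were at least 2-fold lower, with −6.96 ± 0.19 for Ifit3. The longest lowered runs, of 8 genes each, were on chromosome 6. One held the C-type lectin receptors Clec4a1 to Clec4e (122896122 to 123266829), the other Clec2d, Cd69, Clec12a and neighbours (128825969 to 129401726). The matrix metalloproteinase genes Mmp13, Mmp12, Mmp10, Mmp8 and Mmp27 formed a run of 5 on chromosome 9 (7272514 to 7581891), and Ms4a genes a run of 7 on chromosome 19 (11382131 to 11618215). Members of such families are alike in sequence, so counts may be shared among neighbours, and the number of separate changes within a run is uncertain.

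**Figure D2:**
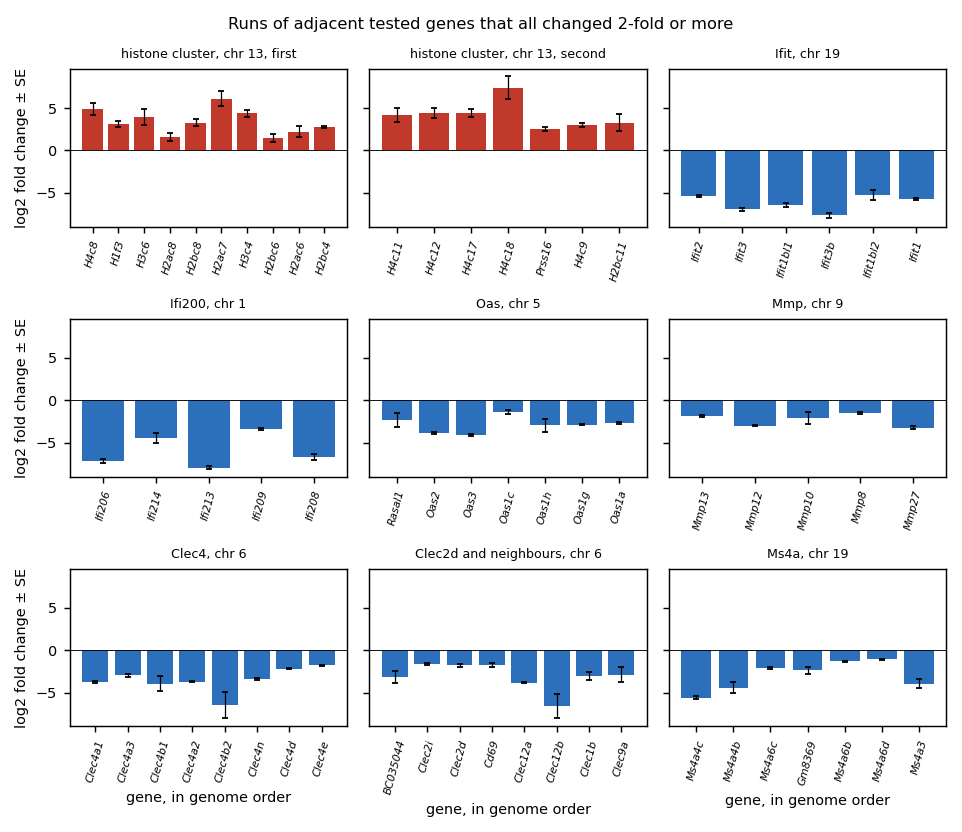
Log2 fold change (JQ1 against MR, error bars ± SE) of adjacent tested genes in 9 of the 29 runs, in genome order within each panel. Bars of the histone runs on chromosome 13 point up for every gene, those of the Ifit, Ifi200, Oas, Mmp, Clec4, Clec2d and Ms4a runs point down for every gene. H4c18 had no MR counts and Clec4b2 and Clec12b no JQ1 counts, so the heights of these bars depend on the prior count.

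Some genes were nearly lost. Of 9421 genes with at least 5 CPM in MR, 73 called genes kept less than 5% of that level. Il1rn, for the IL-1 receptor antagonist, was at 184, 213 and 193 CPM with MR and 0.812, 1.24 and 1.26 CPM with JQ1 (log2 fold change −7.46 ± 0.13, adjusted p = 7.33e-28). Tnfsf10, for the death ligand TRAIL, had 9.05, 11.8 and 10.6 CPM with MR and 0, 0.185 and 0 CPM with JQ1. Both belong to these 73 genes, so a level above 5 CPM with MR and near 0 with JQ1 follows from that definition. Serpinb2, an inhibitor of urokinase, was low with MR too, at 1.41, 1.77 and 2.32 CPM with MR and 0, 0 and 0 CPM with JQ1. The next 4 genes were picked for their abundance in MR. Siglec1, the sialic acid receptor of macrophages, was at 711, 660.2 and 714 CPM with MR and 28.4, 17.8 and 15.4 CPM with JQ1 (log2 fold change −5.09 ± 0.20, adjusted p = 1.46e-08). Acod1, which makes itaconate in activated macrophages, was at 335, 375 and 375 CPM with MR and 17.9, 15.5 and 19 CPM with JQ1 (log2 fold change −4.37 ± 0.091, adjusted p = 2.14e-23). Il7r and the potassium channel gene Kcnn4 changed by −5.01 ± 0.093 and −4.48 ± 0.075. None of the 4 overlapped between groups, which held for 63.4% of all tested genes.

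Cytokine and NF-κB genes were mixed, with 16 of 44 higher, 22 lower and a median of −0.24. Nos2, for inducible nitric oxide synthase, was at 4.99, 5.74 and 4.45 CPM with MR and 0, 0 and 0.349 CPM with JQ1 (log2 fold change −5.39 ± 0.47, adjusted p = 4.84e-11). Nlrp3, the inflammasome sensor, was at 120.2, 115 and 114 CPM with MR and 29.5, 28.8 and 25.8 CPM with JQ1 (log2 fold change −2.05 ± 0.069, adjusted p = 9.14e-21). On the higher side, Tnf was 0.56 ± 0.069, the co-stimulatory gene Cd86 0.90 ± 0.14 and Ptgs1, the constitutive cyclooxygenase gene, 1.5 ± 0.10. The inhibitors of NF-κB Nfkbia and Nfkbie rose by 0.77 ± 0.054 and 0.62 ± 0.071, and Tnfaip3, a further one, changed by −0.95 ± 0.068.

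Genes of antigen presentation were mostly lower. Of 23 MHC class I and peptide loading genes, 18 were lower and 3 higher. H2-D1, a classical heavy chain gene, was at 2135, 2291 and 2329 CPM with MR and 3846, 4543 and 4255 CPM with JQ1 (log2 fold change 0.90 ± 0.070, adjusted p = 2.30e-10). H2-K1, the second, gave 0.61 ± 0.065, and the light chain gene B2m −0.048 ± 0.062 with no call. Tap1, the peptide transporter, was at 117, 136 and 142 CPM with MR and 43.9, 46.6 and 47.3 CPM with JQ1 (log2 fold change −1.52 ± 0.075, adjusted p = 7.50e-17). The immunoproteasome genes Psmb8, Psmb9 and Psmb10 changed by −1.43 ± 0.15, −1.13 ± 0.12 and −1.49 ± 0.075. In MHC class II, 5 of 8 genes were lower. The chain gene H2-Aa was at 9.87, 13.4 and 11 CPM with MR and 0.96, 0.865 and 1.47 CPM with JQ1 (log2 fold change −3.38 ± 0.22, adjusted p = 3.72e-14), and Cd74, the invariant chain gene, rose, at 52.8, 51.4 and 57.1 CPM with MR and 59.7, 76.8 and 79.6 CPM with JQ1 (log2 fold change 0.42 ± 0.089, adjusted p = 1.41e-04). H2 heavy chain genes are close in sequence, and counts may be shared among them.

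Fc and ITAM receptors signal through FcRγ and DAP12, which osteoclasts also need for their co-stimulation. Of 22 tested genes, 8 rose and 10 fell. Fcgr1, the high-affinity IgG receptor, was at 182, 205 and 205 CPM with MR and 6.57, 9.82 and 10.5 CPM with JQ1 (log2 fold change −4.45 ± 0.15, adjusted p = 1.92e-12). Fcgr4 was at 52.4, 47.9 and 45.9 CPM with MR and 5.91, 5.68 and 6.08 CPM with JQ1 (log2 fold change −3.05 ± 0.11, adjusted p = 1.46e-20), and Fcgr3, which lies in the same receptor cluster, at 240.0, 231 and 242 CPM with MR and 425, 434 and 492 CPM with JQ1 (log2 fold change 0.92 ± 0.057, adjusted p = 1.50e-14). Both adaptors rose by a small factor, Fcer1g by 0.51 ± 0.073 and Tyrobp by 0.47 ± 0.076. Trem1, which amplifies inflammatory signals, rose most, at 3.47, 3.16 and 4.19 CPM with MR and 30.3, 27.7 and 29.6 CPM with JQ1 (log2 fold change 3.02 ± 0.15, adjusted p = 1.33e-16). Trem2, a further DAP12 partner, gave −0.12 ± 0.057 with no call.

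Of RANK signalling genes and osteoclast transcription factors, 8 of 28 were higher and 11 lower, and the median of 0.045 turned to −0.14 by total counts and to −0.050 without JQ1 library 1. Tnfrsf11a, the gene for RANK itself, was at 136, 137 and 126 CPM with MR and 108, 105 and 92.8 CPM with JQ1 (log2 fold change −0.39 ± 0.065, adjusted p = 7.53e-06). Fos, the AP-1 subunit that osteoclasts cannot form without, was at 184, 199 and 187 CPM with MR and 106, 109 and 106 CPM with JQ1 (log2 fold change −0.83 ± 0.062, adjusted p = 1.15e-12). Mitf and Tfec, basic helix-loop-helix factors that act on osteoclast genes, changed by −0.90 ± 0.075 and −0.61 ± 0.092, whereas their relative Tfe3 rose by 0.58 ± 0.057. Jdp2, an AP-1 partner needed for osteoclast formation, changed by −1.5 ± 0.081. Map3k14, the NIK kinase of the alternative NF-κB pathway, rose, at 36.8, 32.4 and 38.8 CPM with MR and 72.8, 63.6 and 67.5 CPM with JQ1 (log2 fold change 0.92 ± 0.088, adjusted p = 3.12e-10). The adaptor Traf6 and the kinase Map3k7 gave 0.060 ± 0.077 and 0.16 ± 0.073 with no call.

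Downstream, the genes of fusion and resorption were called in both directions: 14 of 28 were lower, 9 of them at least 2-fold, and 8 higher, none by 2-fold in edgeR, DESeq2 or at an unadjusted p under 0.05. Dcstamp, a membrane protein gene that cell fusion requires, was at 3.58, 5.9 and 4.84 CPM with MR and 0.517, 0.185 and 0.489 CPM with JQ1 (log2 fold change −3.6 ± 0.35, adjusted p = 5.37e-10). Ocstamp, which fusion also requires, had few reads, with 0.705, 0.751 and 0.451 CPM with MR and 0, 0.124 and 0 CPM with JQ1. Slc9b2, a sodium-proton antiporter of osteoclasts, was at 4.99, 5.09 and 5.8 CPM with MR and 0.0739, 0.371 and 0.0698 CPM with JQ1 (log2 fold change −4.81 ± 0.40, adjusted p = 1.18e-11). Dcstamp and Slc9b2 had few reads with JQ1 and entered the test only through libraries without it, so their calls carry little weight. The number of this list at least 2-fold lower is therefore partly set by the count filter. Src, the kinase without which osteoclasts build no ruffled border, was at 23.4, 27.3 and 26.2 CPM with MR and 2.44, 4.39 and 3.63 CPM with JQ1 (log2 fold change −2.86 ± 0.15, adjusted p = 2.45e-16). Atp6v0d2, an osteoclast subunit of the proton pump, changed by −2.61 ± 0.15. Of the acid machinery that other cells share, Clcn7, the chloride channel, changed by −0.56 ± 0.063, and Tcirg1, a pump subunit, gave −0.052 ± 0.050 with no call. Ostm1, the partner of the chloride channel, and Plekhm1, which guides lysosomes to the ruffled border, rose by 0.53 ± 0.064 and 0.49 ± 0.061. The whole list took 0.991 to 1.0% of the counts with MR and 1.04 to 1.1% with JQ1.

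Genes listed as repressors of osteoclast formation, a list of transcription factors and signalling inhibitors, were called in both directions. Of 14 tested, 8 were higher and 3 lower, with a median of 0.19, or −0.00059 by total counts. Cebpa, a myeloid lineage factor on this list that has also been tied to osteoclast commitment, was at 47, 42.4 and 45.4 CPM with MR and 151, 166 and 159.8 CPM with JQ1 (log2 fold change 1.82 ± 0.079, adjusted p = 3.72e-18). Irf8, a repressor of osteoclast genes, was at 124, 129.9 and 138 CPM with MR and 253, 253 and 244 CPM with JQ1. In both genes the JQ1 libraries lay above the MR libraries, and groups without overlap were found for 63.4% of all tested genes. Socs1, the cytokine signalling inhibitor, and the homeobox gene Lhx2 changed by −2.16 ± 0.33 and −2.26 ± 0.69.

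**Figure D3:**
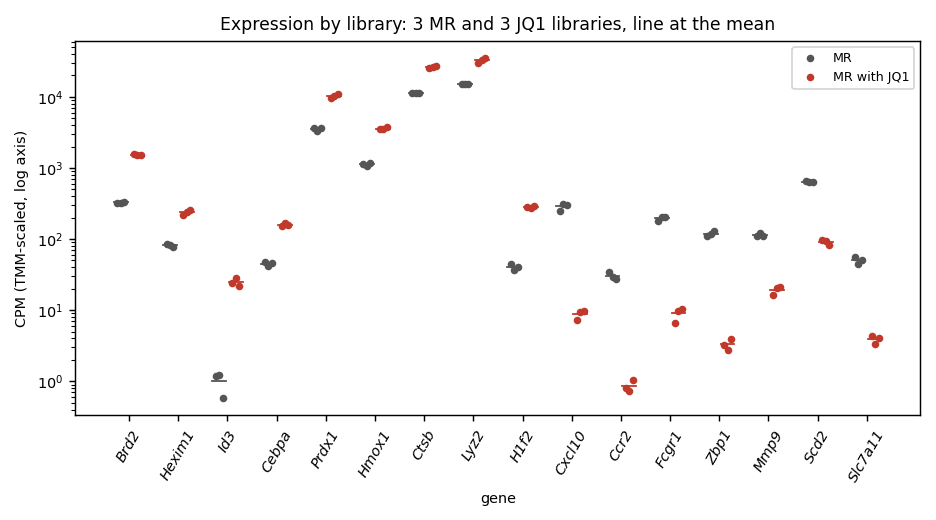
TMM-scaled CPM (log axis) of 16 genes in the 3 MR and 3 JQ1 libraries, with a line at each group's mean. Brd2, Hexim1, Id3, Cebpa, Prdx1, Hmox1, Ctsb, Lyz2 and H1f2 are higher in every JQ1 library, and Cxcl10, Ccr2, Fcgr1, Zbp1, Mmp9, Scd2 and Slc7a11 lower.

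Id proteins, which BMP signals induce and which hold E proteins off DNA, diverged from one another. Id1 was at 2.29, 1.29 and 2.45 CPM with MR and 13.5, 15.4 and 17.9 CPM with JQ1 (log2 fold change 2.97 ± 0.24, adjusted p = 5.84e-12). Id3 was at 1.17, 1.23 and 0.58 CPM with MR and 23.9, 28.1 and 22.2 CPM with JQ1, and Id2 gave 0.022 ± 0.082 with no call. Tcf12, for an E protein, changed by −0.48 ± 0.071. Smad7, the inhibitory SMAD that the pathway induces, was at 2.06, 3.38 and 2.45 CPM with MR and 7.09, 5.81 and 6.22 CPM with JQ1 (log2 fold change 1.27 ± 0.27, adjusted p = 1.48e-04). Tgfb1, the ligand gene, was at 381, 394 and 375 CPM with MR and 962, 1043 and 1062 CPM with JQ1 (log2 fold change 1.42 ± 0.053, adjusted p = 8.64e-20). Over the 26 tested genes, 11 were higher and 9 lower, with a median of 0.18 that was −0.006 by total counts.

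Immediate early genes split as well, with 16 of 34 higher and 9 lower and a median of 0.15 that was −0.040 by total counts. Egr1, a zinc finger factor of growth signals, was at 0.94, 0.429 and 1.68 CPM with MR and 21, 19.5 and 24.3 CPM with JQ1, and its paralog Egr2 at 10.4, 12.8 and 8.83 CPM with MR and 4.58, 4.14 and 4.54 CPM with JQ1 (log2 fold change −1.28 ± 0.17, adjusted p = 1.32e-07). The corepressor gene Nab2, an EGR1 target that restrains it, was at 9.34, 12.3 and 10.7 CPM with MR and 26.4, 23.8 and 25.6 CPM with JQ1 (log2 fold change 1.22 ± 0.14, adjusted p = 5.95e-09). Fosl1, the AP-1 subunit FRA-1, fell most, at 2.47, 4.24 and 5.87 CPM with MR and 0.591, 0.124 and 0.489 CPM with JQ1 (log2 fold change −3.4 ± 0.44, adjusted p = 1.52e-07). Klf2, Ier3 and Btg2 rose by 1.88 ± 0.11, 2.21 ± 0.11 and 1.84 ± 0.15. Dusp6, a phosphatase that feedback from ERK induces, was at 83, 89 and 88 CPM with MR and 282, 273 and 288 CPM with JQ1 (log2 fold change 1.7 ± 0.066, adjusted p = 2.39e-19). The ERK phosphatase gene Dusp5 went the other way, at −0.94 ± 0.14.

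Replication-dependent histone genes had the highest median among the lists examined. The table held 66 replication-dependent histone genes. Of these, 21 were tested and 20 were called higher, 19 at least 2-fold where 4.61% of all tested genes were, and 0 lower by edgeR, by DESeq2 and at an unadjusted p under 0.05, with a median of 3.28. The median was 2.94 with the liver term and 2.55 against dBRD9. A gene needed enough counts in 3 libraries to be tested. Members with few MR counts could thus enter through libraries where they are high, as H4c18 with no MR counts did. The numbers called and the median are therefore partly set by the filter, and the median was 3.04 under a stricter one. All 66 genes together, tested or not, took 0.00735 to 0.00815% of the counts with MR and 0.0434 to 0.046% with JQ1. Their mature transcripts normally end in a stem-loop in place of a poly(A) tail, and the sources used here do not give how RNA was selected for the libraries. The H1f2 and H3c4 promoters are printed since TATA boxes and CCAAT boxes are common in this family; capitals mark TATAAA and CCAAT on either strand in the 250 bases before the start (RefSeq, GRCm38.p6). H1f2, for a linker histone (chr13:23738557-23738806, plus strand), holds 1 CCAAT that begins 54 bases before the start. H3c4, for a core histone (chr13:23575513-23575762, plus strand), holds 6 matches in all, the nearest at 32 bases.
H1f2: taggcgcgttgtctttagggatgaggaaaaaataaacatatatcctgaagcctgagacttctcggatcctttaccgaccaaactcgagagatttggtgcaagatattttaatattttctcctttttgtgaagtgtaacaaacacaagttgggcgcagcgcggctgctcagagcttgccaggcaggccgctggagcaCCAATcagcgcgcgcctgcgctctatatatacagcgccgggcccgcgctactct
H3c4: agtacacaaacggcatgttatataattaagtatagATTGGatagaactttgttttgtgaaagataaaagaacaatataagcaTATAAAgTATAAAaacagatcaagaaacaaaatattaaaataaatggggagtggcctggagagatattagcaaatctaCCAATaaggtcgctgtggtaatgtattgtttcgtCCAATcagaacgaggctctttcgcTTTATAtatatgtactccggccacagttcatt

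With the 50 bases after the start included, TATAAA was found for 11 of the 18 genes of this list with a promoter (61.1%, exact 95% interval 35.8 to 82.7%) against 15.7% of all genes in the RefSeq table, and CCAAT for 12 of 18 (66.7%, against 41.1%). H1f2 was at 45.1, 37 and 40.6 CPM with MR and 285, 269 and 296 CPM with JQ1 (log2 fold change 2.79 ± 0.076, adjusted p = 5.15e-23). H3c4 was at 0.176, 0.429 and 0.258 CPM with MR and 6.94, 5.0 and 6.7 CPM with JQ1 (log2 fold change 4.37 ± 0.44, adjusted p = 7.93e-10). H4c18 had no reads with MR and some with JQ1 (0, 0 and 0 CPM with MR and 1.77, 1.05 and 0.978 CPM with JQ1), and the list's median stayed the same with this gene at the bound that 3 counts over the MR group set. H3c4 and H4c18 were low with MR, so their rises rest on few MR reads, while H1f2 was not. The 17 genes of both higher runs lie on chromosome 13 (GRCm39), 10 of them between 23715220 and 23878163 and 7 between 21919234 and 22227846, and the only one that is no histone is Prss16. Replication-independent histones, whose transcripts are polyadenylated, were higher in 8 of 10 and lower in 0 by edgeR and DESeq2 and in 1 at an unadjusted p under 0.05, with a median of 0.52. H3f3b, for the variant H3.3, was at 641, 657 and 668 CPM with MR and 1294, 1398 and 1383 CPM with JQ1 (log2 fold change 1.05 ± 0.049, adjusted p = 2.02e-17). H1f0, a linker variant of resting cells, rose by 0.98 ± 0.10.

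Genes of S phase and mitosis were mostly lower. Of 55 genes of DNA replication and S phase, 42 were lower and 2 higher, with a median of −0.49. Slbp, the protein that binds the histone stem-loop, was one of the 2 that rose, at 50.04, 45.8 and 47.3 CPM with MR and 56.9, 64.3 and 66.6 CPM with JQ1 (log2 fold change 0.39 ± 0.082, adjusted p = 1.47e-04). In mitosis and G2, 55 of 59 were lower and 1 higher, with a median of −0.64. Foxm1, the factor that drives mitotic genes, was at 66.2, 74.5 and 73.9 CPM with MR and 34.9, 34.8 and 32.8 CPM with JQ1 (log2 fold change −1.07 ± 0.075, adjusted p = 3.54e-13), and Ccnb1, for the mitotic cyclin, at 73.5, 62.4 and 73.5 CPM with MR and 35.8, 37.1 and 33.5 CPM with JQ1 (log2 fold change −0.97 ± 0.080, adjusted p = 1.08e-11). Falls were shallow in this list, with only 5 members at least 2-fold lower. G1 cyclins, CDKs, their inhibitors and E2F partners were called in both directions, 8 of 21 higher and 8 lower, with a median of −0.26 that was −0.0018 against dBRD9. Ccnd1, the cyclin of G1, was at 661, 666 and 653 CPM with MR and 262, 256 and 229 CPM with JQ1 (log2 fold change −1.4 ± 0.053, adjusted p = 1.40e-19), and Rb1, which holds E2F factors back, rose by 0.93 ± 0.070. DNA repair genes were lower in 15 of 27 and higher in 3, with a median of −0.51.

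Genes of the MYC network and ribosome biogenesis were lower in 40 of 60 and higher in 5, with a median of −0.31. Mycl, the gene for the paralog L-MYC, was at 8.69, 7.56 and 8.06 CPM with MR and 0, 0.556 and 0.0698 CPM with JQ1 (log2 fold change −5.12 ± 0.36, adjusted p = 3.18e-13). Mxi1, a repressor that competes for MAX, was at 15.3, 19 and 17.5 CPM with MR and 45.9, 43.7 and 42 CPM with JQ1 (log2 fold change 1.34 ± 0.10, adjusted p = 2.69e-12). Dkc1 and Gar1, subunits of the complexes that modify ribosomal RNA, changed by −1.13 ± 0.10 and −1.15 ± 0.14. The genes of ribosomal proteins themselves were higher in 31 of 78 and lower in 2, all by under 2-fold, with a median of 0.11 that was −0.074 by total counts and −0.018 against dBRD9.

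Survival and stress genes were called in both directions. Of 26 BCL2 family and caspase genes, 6 rose and 13 fell. Bcl2a1d, one of the copies of the survival gene for A1, was at 1.64, 3.11 and 1.87 CPM with MR and 0.0739, 0.741 and 0.489 CPM with JQ1 (log2 fold change −2.29 ± 0.44, adjusted p = 5.76e-05), and the near-identical copies of this gene make its count uncertain. Mcl1, a survival gene that macrophages depend on, changed by −0.28 ± 0.051. The BH3-only death genes Bmf and Bcl2l11 rose by 1.05 ± 0.18 and 0.60 ± 0.074. Among 24 p53 targets 11 were higher and 8 lower, and the median of 0.12 was −0.069 by total counts. The nucleotide excision repair genes Ddb2 and Xpc rose by 1.66 ± 0.20 and 1.55 ± 0.10, and the p53 antagonist gene Mdm2 changed by −0.82 ± 0.064.

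NRF2 target genes, which supply glutathione, thioredoxin and NADPH against oxidants, were higher in 17 of 25, 10 of them at least 2-fold, and lower in 6, with a median of 0.80. They took 2.89 to 3.0% of the counts with MR and 4.22 to 4.77% with JQ1. The Prdx1 and Srxn1 promoters are printed because these genes act as a pair, SRXN1 reducing over-oxidized peroxiredoxin, and because both carry the AP-1 motif TGANTCA near their starts. The antioxidant response element core was searched as TGACNNNGC. In Prdx1 (chr4:116685349-116685598, plus strand) the AP-1 motif begins 237 and 131 bases before the start, and a response element match at 133 overlaps the second of these. In Srxn1 (chr2:152105274-152105523, plus strand) the capitals begin 102 and 45 bases before the start and are AP-1 matches. Sequences are the 250 bases before the RefSeq start (GRCm38.p6), and capitals mark either motif on either strand.
Prdx1: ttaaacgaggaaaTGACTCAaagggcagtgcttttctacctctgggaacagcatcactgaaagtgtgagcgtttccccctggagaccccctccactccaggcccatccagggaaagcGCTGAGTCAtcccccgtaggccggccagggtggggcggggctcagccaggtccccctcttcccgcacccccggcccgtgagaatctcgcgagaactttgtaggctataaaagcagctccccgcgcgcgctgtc
Srxn1: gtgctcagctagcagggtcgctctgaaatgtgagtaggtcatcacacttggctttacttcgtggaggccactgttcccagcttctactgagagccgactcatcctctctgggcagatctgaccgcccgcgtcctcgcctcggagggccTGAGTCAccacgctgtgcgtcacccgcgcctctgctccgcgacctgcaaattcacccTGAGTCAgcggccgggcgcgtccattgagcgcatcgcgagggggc

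With the 50 bases after the start included, TGACNNNGC was found for 9 of the 22 NRF2 list genes with a promoter (40.9%, exact 95% interval 20.7 to 63.7%) against 13.99% of all genes in the RefSeq table, and TGANTCA for 3 of 22 (13.6%, against 8.97%). Prdx1 was at 3642, 3268 and 3609.7 CPM with MR and 9635, 10445 and 10906 CPM with JQ1 (log2 fold change 1.56 ± 0.054, adjusted p = 1.46e-20). Srxn1 was at 617, 567 and 608 CPM with MR and 1599, 1548 and 1606 CPM with JQ1 (log2 fold change 1.41 ± 0.052, adjusted p = 7.16e-20). Gclc, the catalytic subunit of glutathione synthesis, was at 121, 108 and 119.9 CPM with MR and 425, 351 and 401 CPM with JQ1 (log2 fold change 1.76 ± 0.068, adjusted p = 1.81e-19). The groups did not overlap in any of these genes, which held for 63.4% of all tested genes. Hmox1, for heme oxygenase, was at 1121, 1081 and 1181 CPM with MR and 3494, 3502 and 3735 CPM with JQ1 (log2 fold change 1.67 ± 0.053, adjusted p = 1.85e-21). The pentose phosphate genes that supply NADPH rose, with 1.3 ± 0.053 for G6pdx, 1.02 ± 0.050 for Pgd and 1.02 ± 0.069 for Taldo1, and so did Txnrd1 (1.01 ± 0.053) and Nfe2l2, the gene for NRF2 itself (0.80 ± 0.056). Slc7a11, the cystine importer that feeds glutathione synthesis, was the main exception, at 55.4, 44.9 and 50.04 CPM with MR and 4.36, 3.34 and 4.12 CPM with JQ1 (log2 fold change −3.68 ± 0.13, adjusted p = 1.29e-20). Malic enzyme (Me1) was lower as well, at 50.8, 40.1 and 42.8 CPM with MR and 16.7, 12 and 16.3 CPM with JQ1 (log2 fold change −1.57 ± 0.12, adjusted p = 1.28e-12).

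Slc7a11 is also a target of ATF4, the factor of amino acid shortage, and most genes of that list were lower: 20 of 25 genes were lower, 11 at least 2-fold, and 2 higher, with a median of −0.74. Phgdh, the first enzyme of serine synthesis, was at 11.3, 11.3 and 13.2 CPM with MR and 1.26, 0.988 and 0.559 CPM with JQ1 (log2 fold change −3.67 ± 0.23, adjusted p = 1.74e-14). Chac1, which cleaves glutathione, was at 2.23, 2.04 and 3.35 CPM with MR and 0.222, 0.185 and 0.629 CPM with JQ1 (log2 fold change −2.86 ± 0.47, adjusted p = 5.14e-06). Asns, for asparagine synthetase, was at 47.8, 50.7 and 48.5 CPM with MR and 18.4, 21.9 and 18.6 CPM with JQ1 (log2 fold change −1.32 ± 0.088, adjusted p = 1.01e-13). Atf4 itself gave −0.17 ± 0.066, a call that was lost with the liver term and without MR library 2, MR library 3 or JQ1 library 1. Sesn2, which restrains mTORC1, rose by 0.68 ± 0.094.

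Lysosomal genes were more often higher than lower. Of 50 genes for lysosomal enzymes and the proton pump, 31 were higher and 7 lower, with a median of 0.28, and their share of the counts was 4.66 to 4.71% with MR and 6.34 to 6.6% with JQ1. By total counts the median was 0.10. A share of counts is weighted by abundant genes and does not show how many genes rose. Ctsb, the lysosomal protease gene among the largest CPM gains above, had a log2 fold change of 1.23, well above the median. Ctsd, for an aspartic protease, was at 2134, 2295 and 2349.5 CPM with MR and 3831, 4579.8 and 3977 CPM with JQ1 (log2 fold change 0.87 ± 0.094, adjusted p = 2.25e-06). Man2b1, a mannosidase gene, was at 513, 505 and 529 CPM with MR and 1266, 1219 and 1212 CPM with JQ1 (log2 fold change 1.26 ± 0.049, adjusted p = 2.56e-19). Mcoln1, the calcium channel of lysosomes, rose by 1.09 ± 0.076. Ctss, the protease that trims the invariant chain, was at 1912, 2001 and 1994 CPM with MR and 1010.1, 1104 and 1186 CPM with JQ1 (log2 fold change −0.84 ± 0.057, adjusted p = 1.32e-13), and legumain (Lgmn) changed by −0.61 ± 0.059. Tfeb, a factor that switches lysosomal genes on, gave 0.012 ± 0.10 with no call.

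Lipid synthesis genes were mostly lower. Of 36 genes for cholesterol and fatty acid synthesis, 30 were lower, 17 at least 2-fold, and 2 higher, with a median of −0.97. Scd2, a desaturase that makes monounsaturated fatty acids, was at 657, 627 and 642 CPM with MR and 97.7, 93.9 and 81.6 CPM with JQ1 (log2 fold change −2.82 ± 0.066, adjusted p = 1.27e-24). Fads2, for a desaturase of polyunsaturated fatty acids, was at 81.2, 91.7 and 87.4 CPM with MR and 13.4, 12.5 and 13.4 CPM with JQ1 (log2 fold change −2.73 ± 0.083, adjusted p = 7.87e-22). Fdps, which makes farnesyl diphosphate and is the enzyme that nitrogen bisphosphonates block in osteoclasts, was at 8.11, 8.95 and 9.8 CPM with MR and 2.95, 2.16 and 2.17 CPM with JQ1 (log2 fold change −1.89 ± 0.20, adjusted p = 1.59e-09). The groups did not overlap in any of them, which held for 63.4% of all tested genes. Srebf2, the factor that drives these genes, changed by −0.39 ± 0.057. Scap, its escort protein, rose by 0.72 ± 0.095.

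Among LXR targets and lipid handling genes 8 of 23 were higher and 10 lower. Fabp4, a fatty acid carrier and PPARγ target, was at 20.4, 20.6 and 21.4 CPM with MR and 0.369, 0.494 and 0.279 CPM with JQ1 (log2 fold change −5.73 ± 0.22, adjusted p = 1.06e-19). Pparg, for that receptor, was at 20.03, 22.9 and 23.5 CPM with MR and 8.49, 6.86 and 7.47 CPM with JQ1 (log2 fold change −1.55 ± 0.12, adjusted p = 7.01e-12). Nr1h3, for LXRα, was at 27.9, 30.3 and 30.2 CPM with MR and 5.17, 7.54 and 6.56 CPM with JQ1 (log2 fold change −2.19 ± 0.13, adjusted p = 1.30e-14). Abca1, which exports cholesterol, changed by −1.24 ± 0.071, while Cpt1a, which admits fatty acids to mitochondria, rose by 1.07 ± 0.063.

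The respiratory chain draws subunits from the mitochondrial genome and from nuclear genes. Of 11 mitochondrially encoded genes 10 were called higher and 0 lower by edgeR, by DESeq2 and at an unadjusted p under 0.05, with a median of 0.96 and 0.77 by total counts. mt-Co3, a cytochrome oxidase subunit, was at 10.5, 9.54 and 12.9 CPM with MR and 16.6, 20.01 and 30.1 CPM with JQ1 (log2 fold change 1.02 ± 0.18, adjusted p = 3.20e-05). mt-Nd4, a complex I subunit, was at 869, 844 and 801 CPM with MR and 1578, 1501 and 1812 CPM with JQ1 (log2 fold change 0.96 ± 0.13, adjusted p = 9.52e-05). Both came from libraries in which 1.86 to 1.96% of all counts with MR and 2.72 to 3.2% with JQ1 were mitochondrial. The nuclear genes of the respiratory chain were higher in 11 of 76 and lower in 11, with a median of 0.025, or −0.16 by total counts and −0.093 against dBRD9 and −0.018 without JQ1 library 2. Glycolysis and hypoxia genes gave 9 higher and 7 lower of 31. Vegfa, the angiogenic factor that hypoxia induces, was at 31.5, 28.2 and 29 CPM with MR and 2.58, 3.64 and 1.89 CPM with JQ1 (log2 fold change −3.43 ± 0.15, adjusted p = 7.87e-18). Pkm, for pyruvate kinase, and Pgk1 rose by 0.80 ± 0.048 and 0.67 ± 0.058, and Ldha changed by −0.62 ± 0.053.

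**Figure D4:**
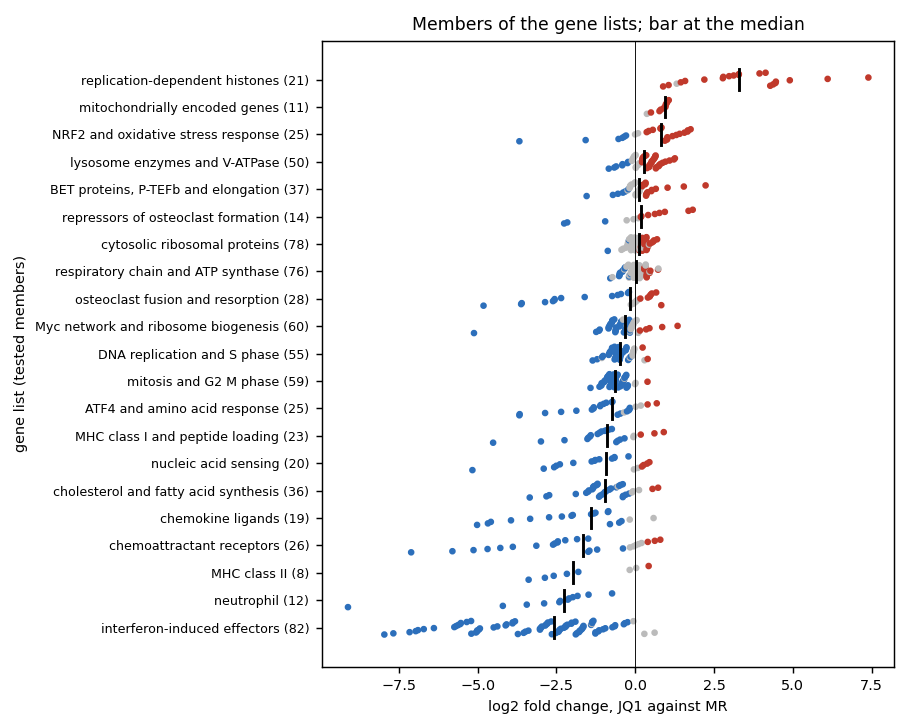
Log2 fold change (JQ1 against MR) of every tested member of 21 gene lists, with the number tested in parentheses, red for called higher, blue for called lower, grey for no call, and a bar at each list's median. Medians run from 3.28 for replication-dependent histones to −2.58 for interferon effectors, and most lists near 0 hold called members on both sides.

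Genes of macrophage surface and identity were higher in 15 of 41 and lower in 21, and took 4.72 to 4.77% of the counts with MR and 6.0 to 6.55% with JQ1, with the gain of Lyz2 alone at 17882 CPM. Ly6c2, a surface marker of inflammatory monocytes, was at 9.63, 10.3 and 10.3 CPM with MR and 0.443, 0.741 and 1.82 CPM with JQ1 (log2 fold change −3.32 ± 0.25, adjusted p = 2.50e-12), and Plac8 changed by −3.08 ± 0.37. Mertk, a receptor for dying cells, was at 46.3, 45.1 and 53.7 CPM with MR and 194, 174 and 178 CPM with JQ1 (log2 fold change 1.91 ± 0.077, adjusted p = 6.10e-19), and its relative Axl at 77.4, 77 and 76.7 CPM with MR and 11.4, 13.8 and 11.9 CPM with JQ1 (log2 fold change −2.63 ± 0.090, adjusted p = 1.04e-20). Marco, a scavenger receptor, was at 248, 258 and 253 CPM with MR and 34.4, 39.3 and 39.2 CPM with JQ1 (log2 fold change −2.75 ± 0.063, adjusted p = 8.19e-25). Csf1r, the M-CSF receptor, rose by 0.58 ± 0.051, and Adgre1, for the F4/80 antigen, by 0.46 ± 0.048. Mrc1, the mannose receptor, changed by −1.08 ± 0.056, and Cd68, which is both a macrophage and an osteoclast marker, by −0.28 ± 0.056. Selenop, a selenium carrier, and Kctd12 rose by 2.16 ± 0.063 and 2.22 ± 0.062.

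Markers of other cell types in such marrow cultures fell as well. All 12 tested neutrophil markers were called lower, 11 at least 2-fold, and their summed share was 0.0268 to 0.0293% of the counts with MR and 0.0048 to 0.0060% with JQ1. Ngp, a neutrophil granule protein gene, was at 65.9, 68.8 and 70.1 CPM with MR and 7.75, 8.71 and 11.1 CPM with JQ1 (log2 fold change −2.89 ± 0.12, adjusted p = 1.56e-16). Camp, for cathelicidin, had reads with MR and none with JQ1 (3.82, 4.29 and 4.39 CPM with MR and 0, 0 and 0 CPM with JQ1). Endothelial and megakaryocyte markers were lower in 5 of 7, among them Vwf at 44.1, 38.6 and 39 CPM with MR and 2.88, 2.35 and 1.12 CPM with JQ1 (log2 fold change −4.26 ± 0.17, adjusted p = 3.82e-19), and stromal markers in 6 of 7, among them Col3a1 at 1.53, 1.82 and 2.06 CPM with MR and 0.443, 0.309 and 0.419 CPM with JQ1 (log2 fold change −2.2 ± 0.47, adjusted p = 1.98e-04). B cell and T and NK cell markers each had 1 tested gene, and no erythroid marker was tested. That gene was called lower in both lists, but it passed the count filter only through libraries without JQ1, so the call carries no weight. Camp and Col3a1 entered the test in the same way. In bulk RNA fewer cells of a type and less RNA per cell cannot be told apart. Hepatocyte markers were higher in 5 of 23 by edgeR and in 2 by DESeq2, with 0 lower in either, nor any at an unadjusted p under 0.05. This follows the liver division among the libraries, and its part in other results was not tested beyond the fits with that term and against dBRD9.

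Features of the genes themselves went with small differences in response, given here as a description over genes that are not independent. Among the 232 tested coding genes with a single exon, the median was 0.30 and 15.9% were at least 2-fold higher, against 3.37 to 5.74% in classes with more exons. The single-exon class holds the histones above. Genes in the lowest quintile of MR expression were at least 2-fold lower in 28.1% of cases and at least 2-fold higher in 10.2%. In the highest quintile these shares were 6.81% and 2.83%. Genes with very few reads in MR or with JQ1 could enter the test through other libraries, and their fold changes depend on the prior count. The larger shares at low expression can therefore be partly set by the filter and are not read as a feature of the response. Over 11349 genes the rank correlation of fold change with transcript length was 0.019, and over 11670 that with MR expression was 0.11. By chromosome, the share at least 2-fold lower was highest on chromosome 6 (17.2%), which holds both long lectin runs.

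With the liver term 5408 of the 7190 calls were kept and 7188 had the same sign, and against the dBRD9 libraries 6312 were kept and 7129 had the same sign. Of the 1989 genes called at least 2-fold, 1734 and 1871 kept that call.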

How the data were processed

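RNA was extracted with TRIzol and made into libraries with a NEBNext Ultra II kit, per the labels. How RNA was selected and whether counting used strand are not given in the sources used here. The submitters' processing notes name cutadapt, HISAT2, HTSeq and the build GRCm39. The authors deposited whole-number counts for each gene and library, which were tested here as deposited, and FPKM computed from the same counts, of which only the group means were tabulated here. Of 21899 genes 21700 matched GENCODE, and the 199 others held 0.013 to 0.016% of the counts. All 12 columns matched a sample.

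Counts were analysed in R 4.3.3 with edgeR 4.0.16 and limma 3.58.1 (filterByExpr with a minimum count of 10 and a total of 15, TMM, robust quasi-likelihood test in 1 fit of 12 libraries with 8 residual degrees of freedom, prior count 0.125, Benjamini-Hochberg adjusted p under 0.05). The biological coefficient of variation was 7.29%. Pairs of replicates gave a chi-square over its degrees of freedom of 3.82 to 5.13 with MR and 7.03 to 15.7 with JQ1, beyond counting noise. The script was tested on simulated data. DESeq2 1.42.0 was an alternative. Tables were handled with pandas 2.3.3 in Python 3.11.15, which also drew the plots (matplotlib 3.10.9). Exact binomial intervals of 95% cover counting error only and treat list members as independent, although many are relatives. Lists were drawn up by family or pathway, so their motif shares describe the lists and not the response to JQ1. Motifs were searched in RefSeq promoters of GRCm38.p6, matched by gene. Of the tested genes 79.9% had one, and since this was 76.2% for genes at least 2-fold lower and 78.3% for those at least 2-fold higher, under the 80% required, motif shares between those groups are void and are not given. Shares are given for lists with at least 80% matched.

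The gene lists and the comparison were chosen with earlier results of these data known. Genes were named by rule: the 10 largest CPM differences and the 6 largest fold changes per direction without overlap between the groups, up to 4 called members per direction of each list with at least 5 CPM, a fixed set, and the 2 most abundant markers of each other cell type. A further 70 were chosen after their values were seen: Abca1, Acod1, Adgre1, Atf4, B2m, Bcl2a1d, Bst2, Camp, Ccl3, Ccl6, Ccl9, Ccnb1, Ccr1, Cd68, Chac1, Clcn7, Col3a1, Ctsd, Dusp6, Fcer1g, Fosl1, Foxm1, G6pdx, Gbp2, H3c4, H4c18, Hexim2, Ifih1, Igtp, Iigp1, Il7r, Isg15, Jak1, Kcnn4, Kctd12, Lhx2, Map3k7, Mcl1, Mrc1, Mycl, Nab2, Nfe2l2, Nfkbie, Nlrp3, Oas3, Pgd, Plac8, Pml, Psmb9, Rsad2, Samhd1, Selenop, Serpinb2, Siglec1, Slc9b2, Smad7, Socs1, Srebf2, Srxn1, Taldo1, Tbk1, Tcirg1, Tfeb, Tfec, Ticam1, Tlr4, Trem2, Txnrd1, Tyrobp and mt-Nd4. Ferritin, peroxiredoxin, H3.3 and ribosomal protein genes have processed pseudogenes that may share their reads. Genes that overlap an annotated neighbour, whose reads cannot be told apart without strand, include Ctsb, Mmp12, Brd2, Mepce, Aff1, Cxcl10, Igtp, Jak1, Irf7, Irf9, Aim2, Cd180, P2ry14, B2m, Tap1, Psmb9, H2-Aa, Nab2, Fosl1, Klf2, Foxm1, Ccnd1, Rb1, Dkc1, Ddb2, G6pdx, Txnrd1, Me1, Ctsd, Srebf2, Scap, Nr1h3, mt-Co3, mt-Nd4, Csf1r, Selenop and Phf10. Alternatives were DESeq2 size factors, total counts, the DESeq2 Wald test, omission of the filter, a filter at 1 CPM in 3 libraries with at least 20 counts on average, the 6 libraries alone, the study's threshold (unadjusted p and a fold of 1.2), a term for libraries with at least 100 albumin counts, dBRD9 as reference, and each library left out in turn. The study's other data types were not used here. Some genes are not reported.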

Additional observations from a re-analysis of the deposited data

How the results depend on the processing

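No paired analysis was possible because the labels give no replicate numbers that the groups share; the numbers used here follow deposition order. Under total counts 2216 genes were higher and 352 at least 2-fold higher, against 3503 and 538 by TMM, while 5170 were lower and 1765 at least 2-fold lower, against 3687 and 1451. All other alternatives moved these counts by less than 1.5 times. With each library left out in turn the counts were 3173 to 3393 higher, 3420 to 3667 lower, 512 to 596 at least 2-fold higher and 1430 to 1455 at least 2-fold lower. With the liver term they were 2605, 2877, 481 and 1320. The cause of these shifts was not tested, other than that the liver term leaves MR library 3 as the only MR library on its side.

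Medians near 0 changed sign under total counts: BET and elongation genes −0.056, immediate early genes −0.040, Id and TGF-beta or BMP genes −0.0062, RANK signalling genes −0.14, repressors of osteoclast formation −0.000588, interferon receptors, STATs and IRFs −0.0031, ribosomal proteins −0.074, respiratory chain −0.16, p53 targets −0.069 and BAF complexes −0.12. So did Calr (−0.014) and Cdkn1a (−0.16). Against dBRD9 the medians of ribosomal proteins (−0.018) and the respiratory chain (−0.093) turned. With each library left out in turn the median of RANK signalling genes ran from −0.050 (without JQ1 library 1) to 0.064, and that of glycolysis genes from −0.049 to 0.018 (without JQ1 library 3), with 0.025 under the stricter filter, 0.0058 in the 6 libraries alone and 0.0050 without MR library 3, and that of the respiratory chain from −0.018 (without JQ1 library 2) to 0.078. Across the 6151 comparisons of a named gene or list median with an alternative, 5905 kept their direction and side of the threshold, 23 of 10 genes with no call in either fit turned in sign, 94 lost the call, 31 gained it, 78 medians moved by more than 1 SD over the JQ1 libraries and 20 others changed sign, all given above. Of the 380 named genes called, 359 kept the call with the liver term and 369 against dBRD9. Restricting motif shares to the bases before the start left all of them within their intervals. Motif shares past 4-fold were not run, since the 2-fold shares were void. Genes in the lowest quintile of expression had at most 5.37 CPM with MR, and at this depth small changes among them were not detectable.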

Other observations

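Further gene groups of the JQ1 comparison were smaller or called on both sides. Complement and coagulation genes were lower in 12 of 20 and higher in 4, with a median log2 fold change of −0.40. F13a1, for a chain of coagulation factor XIII, was at 16, 18.3 and 18.2 CPM with MR and 3.62, 3.95 and 3.07 CPM with JQ1 (log2 fold change −2.3 ± 0.15, adjusted p = 9.31e-14), and Thbs1, for the matrix protein thrombospondin-1, at 25.3, 23.5 and 28.7 CPM with MR and 5.83, 7.16 and 5.17 CPM with JQ1 (log2 fold change −2.08 ± 0.13, adjusted p = 3.68e-14). Of 33 integrin and podosome genes 9 were higher and 15 lower. Itgax, for the integrin chain CD11c, was at 27.9, 32.2 and 29.3 CPM with MR and 8.27, 8.34 and 8.03 CPM with JQ1 (log2 fold change −1.86 ± 0.12, adjusted p = 7.14e-14), and Itgb5, a partner of the alpha-v chain, at 57, 58 and 64.1 CPM with MR and 166, 163 and 161 CPM with JQ1 (log2 fold change 1.45 ± 0.068, adjusted p = 2.82e-17).

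Chaperone genes were higher in 9 of 27 and lower in 10, among them Hspa1b, an inducible HSP70 gene whose near-identical copy makes its count uncertain, at 7.87, 7.4 and 7.35 CPM with MR and 29.5, 25 and 29 CPM with JQ1 (log2 fold change 1.88 ± 0.13, adjusted p = 3.02e-13). Constitutive proteasome subunit genes, a list that leaves out the immunoproteasome subunits, were lower in 15 of 31 and higher in 1, none by 2-fold in edgeR, with a median of −0.10. Of 16 genes for the glucocorticoid receptor and its targets 7 were higher, 2 lower and 7 not called. Their median of 0.20 was 0.012 by total counts. Neither group received dexamethasone. Fkbp5, a chaperone partner of that receptor, was at 32.4, 39.1 and 38 CPM with MR and 52.3, 53.5 and 53.3 CPM with JQ1 (log2 fold change 0.54 ± 0.085, adjusted p = 2.75e-06). Of 27 genes for BAF chromatin remodelling complexes 10 were higher and 4 lower, with Phf10, a subunit of the PBAF form, at 24.6, 21.7 and 23.7 CPM with MR and 37.7, 35.1 and 46.9 CPM with JQ1 (log2 fold change 0.77 ± 0.11, adjusted p = 3.37e-07).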
